A study of Oryza sativa with 12 samples.

Results

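Lipoxygenases and allene oxide synthases carry out the first committed steps of oxylipin synthesis, and CM-LOX2, LOX1.1 and AOS2 are 3 rice genes of these families. They were chosen from these same arrays with their levels known, so their values are given as a description, with no test result. By the array annotation, with symbols and synonyms taken with or without the Os prefix, they make up 3 of the 17905 genes named on the array. They are read by 5 probe sets, 3 for CM-LOX2 (LOC4345994, also called LOX9) and 1 each for LOX1.1 (LOC4334049) and AOS2 (LOC4332121, also called CYP74A2).

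The study measured shoot RNA of rice on 12 one-colour Affymetrix arrays. The groups were the single mutants phr1 and phr3, the triple mutant phr123, and the wild type (WT, cultivar Nipponbare), each with 3 biological repeats. Every plant, WT included, had grown for 14 days in hydroponic culture with 200 µM phosphate and then for 7 days without phosphate. The titles name no cultivar for the mutants, and the tissue label says leaf where the protocol says shoot. A phr2 single mutant and plants kept on phosphate were not analysed here.

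PHR1, PHR2 and PHR3 are MYB-type regulators that activate genes of the phosphate starvation response. A lipoxygenase adds oxygen to a polyunsaturated fatty acid such as linolenic acid, and the hydroperoxide it makes can enter several branches. In the chloroplast, allene oxide synthase, a cytochrome P450 of the CYP74 family, and then allene oxide cyclase turn it into OPDA, which a reductase and beta-oxidation in the peroxisome shorten to jasmonic acid. JAR1 joins jasmonic acid to isoleucine, the receptor COI1 senses the conjugate, and JAZ repressors of the TIFY family are then degraded. In leaves jasmonate is best known for wound and pathogen defence, and its own synthesis genes and JAZ genes are among its usual targets.

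A signal here is a linear array intensity, scaled by the submitters to the same trimmed mean on every array. The 95th percentile of reporter controls, which carry sequences of other organisms, served as the background of each array (the reporter level) and lay between 48.4 and 87.6. Median signals ran from 56.6 to 85.6. Arrays of the same genotype correlated at 0.948 to 0.963 over 12 pairs, and arrays of different genotypes at 0.848 to 0.955 over 54 pairs.

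The targeted genes were read first. PHR2 gave signals of 18.3, 43.8 and 24.3 on the phr123 arrays, against 1750.2, 2031.1 and 1814.5 on the WT arrays. PHR1 had signals of 404.3, 514.2 and 559.5 in phr1 and 569.1, 753 and 810.6 in phr123, against 876.9, 1096.2 and 1153.8 in WT, so its transcript was lower but present. PHR3 had signals of 57.7, 118.9 and 94.5 in phr3 and 1186.6, 172.6 and 118.3 in phr123, against 462.4, 469.1 and 386.7 in WT. The array labelled phr123 replicate 1 therefore stood apart for PHR3, and the values of the 3 genes and the counts of listed genes in phr123 are also given without it. The probe sets were not placed relative to the disrupted part of each gene, so a remaining signal does not check the label.

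CM-LOX2 encodes a lipoxygenase that a chloroplast targeting sequence places in the plastid, where jasmonate synthesis starts. Its brightest probe set had signals of 218, 146.6 and 150.1 on the phr1 arrays, 136.7, 162.5 and 230.5 on the phr3 arrays and 4938.7, 4201.8 and 4108.1 on the phr123 arrays, against 163.2, 154.9 and 251.4 on the WT arrays. All 3 phr123 arrays lay far above the other 9, whose genotypes overlapped one another. The mean signal was 171.6 ± 40.3 in phr1, 176.6 ± 48.5 in phr3 and 4416 ± 455 in phr123, against 189.8 ± 53.5 in WT (SD, n = 3 each). That put the phr123 mean at 23.3 times the WT mean, while the phr1 and phr3 means were 0.904 and 0.93 of it. On the log2 scale phr123 differed from WT by 4.57, from phr1 by 4.71 and from phr3 by 4.67 (SE 0.234 for each). Differences of -0.14 for phr1 and -0.10 for phr3 from WT were smaller than that SE, and so was the 0.03 between phr3 and phr1. Without phr123 replicate 1 the differences of phr123 were 4.49 from WT, 4.62 from phr1 and 4.59 from phr3.

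The other 2 CM-LOX2 probe sets were too dim for the fit across the array, which kept the brighter 50% of the probe sets by mean log2 signal. One of them read 2.5, 54.5 and 33.9 in phr1, 1.7, 2.4 and 1.6 in phr3 and 267.1, 328.9 and 246.6 in phr123, against 9.2, 2.2 and 4.9 in WT. The other, of the _x_at class whose probes may also match other transcripts, read 4, 62.1 and 5.3 in phr1, 31.2, 3.8 and 21.3 in phr3 and 167.3, 148.9 and 131.1 in phr123, against 23.9, 5.8 and 1.3 in WT. Both were above the reporter level on all 3 phr123 arrays and below it on the 9 others. The brightest set was likewise highest on the phr123 arrays, but it was above the reporter level on every array. Set against the reporter level, the phr123 means were at least 5.05-fold and at least 2.69-fold higher than WT. These folds are lower bounds, because a signal below background has no measured level.

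LOX1.1 encodes a lipoxygenase of the group that works outside the plastid. Its probe set had signals of 4.7, 26 and 51.4 in phr1, 31.4, 13.3 and 36.7 in phr3 and 1531.9, 1771.9 and 1654.7 in phr123, against 31.6, 34 and 30.6 in WT. It was below the reporter level on every phr1, phr3 and WT array, and bright on all 3 phr123 arrays. The phr123 mean was 1653 ± 120, against 27.37 ± 23.4 in phr1, 27.13 ± 12.3 in phr3 and 32.07 ± 1.75 in WT (SD, n = 3 each). LOX1.1 in phr123 was at least 29.9-fold higher than in WT, at least 21.8-fold higher than in phr1 and at least 29.5-fold higher than in phr3. No order can be given among phr1, phr3 and WT, which were all below background. The probe set entered the fit only through its phr123 arrays. Without phr123 replicate 1 the bounds were 31-fold against WT, 22.7-fold against phr1 and 30.7-fold against phr3.

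AOS2 encodes an allene oxide synthase, which takes the lipoxygenase product into the jasmonate branch. Its signals were 289.9, 240.5 and 197.6 in phr1, 298.6, 443.4 and 297.1 in phr3 and 1970.7, 1324.7 and 1163.8 in phr123, against 212.1, 167.6 and 171.8 in WT. The 3 phr123 arrays were again above all others. The phr3 arrays also lay above every WT and phr1 array, whereas phr1 and WT overlapped. Mean signals were 242.7 ± 46.2 in phr1, 346.4 ± 84 in phr3 and 1486 ± 427 in phr123, against 183.8 ± 24.6 in WT (SD, n = 3 each), or 1.32, 1.88 and 8.09 times the WT mean. The log2 differences from WT were 0.39 for phr1, 0.90 for phr3 and 2.99 for phr123 (SE 0.226 for each). phr123 exceeded phr1 by 2.59 and phr3 by 2.09, and phr3 exceeded phr1 by 0.50. The order of AOS2 levels was thus phr123, phr3, phr1 and WT, and the last pair did not separate beyond its spread. Its highest array was phr123 replicate 1, and without it the differences of phr123 were 2.76 from WT, 2.37 from phr1 and 1.87 from phr3.

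**Figure D1:**
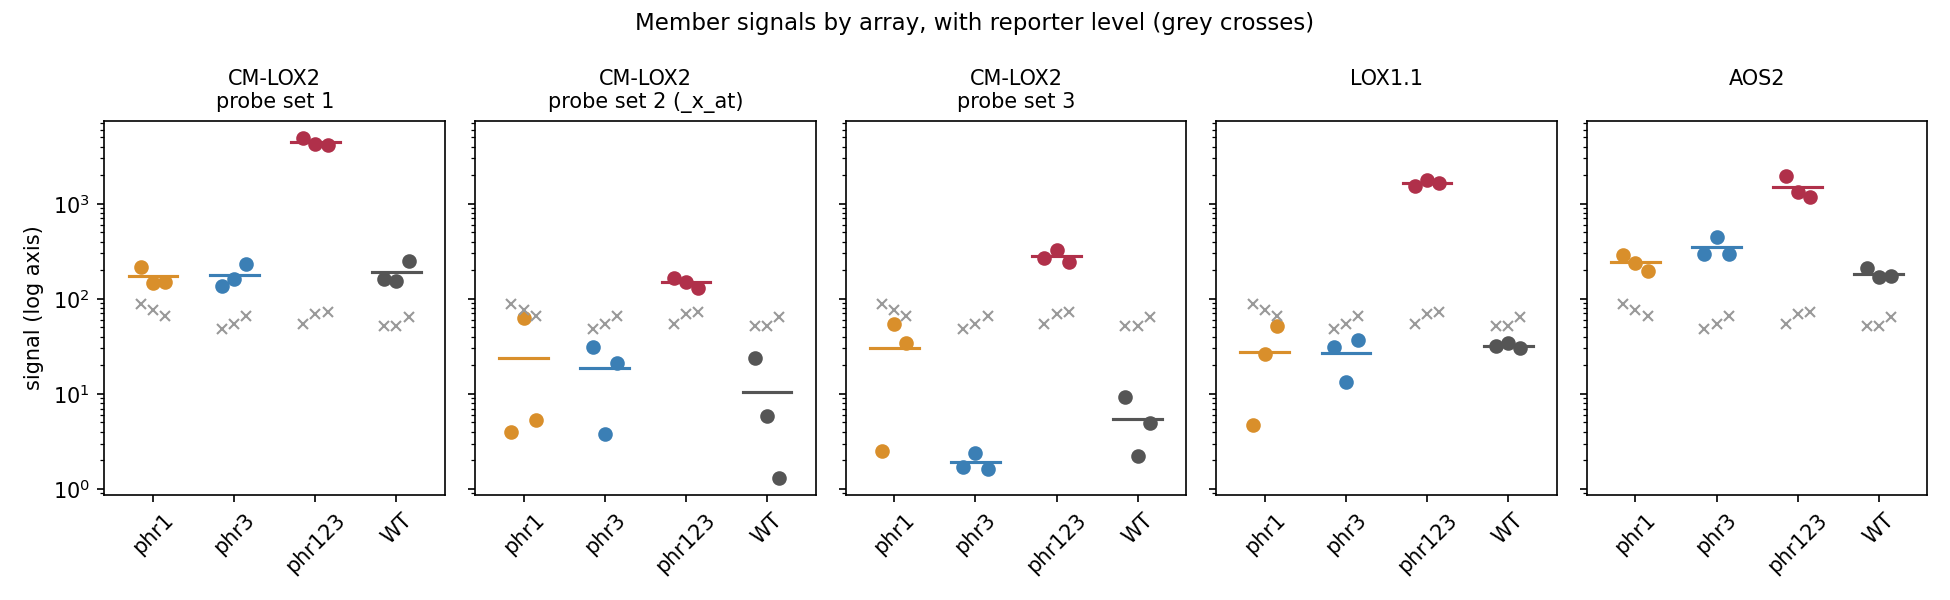
Signal (log axis) of the 5 probe sets of CM-LOX2, LOX1.1 and AOS2 on each of the 12 arrays, in the order phr1, phr3, phr123 and WT; points are arrays, lines are genotype means and grey crosses are each array's reporter level. In every panel the 3 phr123 arrays lie above the 9 others, and for LOX1.1 and the 2 dimmer CM-LOX2 probe sets the others are below the reporter level.

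All 5 probe sets thus had every phr123 array above every WT array. Across the array, 17.0% of the 57194 probe sets did so in phr123, 8.07% in phr3 and 7.52% in phr1. AOS2 was the gene of the 3 that did so in phr3, and no member did so in phr1. In the limma fit 41.5% of 28597 probe sets passed an adjusted p of 0.05 between phr123 and WT, 42.8% between phr123 and phr1, 41.0% between phr123 and phr3, 1.68% between phr3 and phr1, 1.99% between phr3 and WT and 0.934% between phr1 and WT. Since the genes were chosen with these contrasts known, nothing is read from where they stand within those shares. In bulk tissue a change in the share of cells that hold a transcript and a change in its amount per cell cannot be told apart.

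How evenly the phr123 repeats agreed was read for each of the 3 genes from 3 arrays, and a difference between genes was not tested. The coefficient of variation over the phr123 arrays was 7.26% for LOX1.1, 10.3% for CM-LOX2 and 28.7% for AOS2. phr123 replicate 1 was the highest of its group for CM-LOX2 and AOS2 and the lowest for LOX1.1.

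The changes of the single mutants were also added together and set against the triple mutant. For CM-LOX2 the phr1 and phr3 differences from WT summed to -0.24 on the log2 scale, and phr123 exceeded that sum by 4.81 (SE 0.331). For AOS2 the sum was 1.29, and phr123 exceeded it by 1.70 (SE 0.319). Without phr123 replicate 1 the excess was 4.73 for CM-LOX2 and 1.48 for AOS2. No departure is given for LOX1.1, whose single mutants and WT were below background. As phr123 also lacks PHR2 and a phr2 single mutant was not analysed here, the part of PHR2 alone cannot be told apart from that of the combination.

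Several other measures moved with phr123. All 5 leaf markers tested (chlorophyll-binding, Rubisco and chlorophyll synthesis genes) fell in phr123 against WT, where 21.0% of all probe sets did, and 4 of the 5 did so without phr123 replicate 1. The summed signal of the 6 on the array ran from 198100 to 229600 in phr123, against 295500 to 301900 in WT. All 4 cell-division markers tested fell too, with and without that array, the 6 on the array summing to 206.5 to 302.6 in phr123, against 794.3 to 904.9 in WT. They summed to 346.7 to 399.2 in phr3, where 2 of the 4 fell, against 0.731% of all probe sets. Of the 6 cell-division markers, 1 was above the reporter level on all phr123 arrays, 2 on all phr3 arrays and 4 on all WT arrays. The lower sums are therefore partly background. None of the 3 root markers tested passed in limma in any comparison with all arrays, and 1 fell in phr123 without replicate 1. The 5 on the array summed to 1178 to 1579 in phr123, against 1030 to 1566 in WT, with Lsi2 below the reporter level in both. The log2 ratio of 3' to 5' GAPDH signal, a sign of RNA integrity, was 1.69 ± 0.135 in phr123 and 2.35 ± 0.144 in WT by one pair of control probe sets (SD, n = 3 each). By the other pair, whose arrays scattered far more, it was 3.42 ± 1.43 in phr123 and 2.95 ± 3.34 in WT, so the pairs differed in direction. The part of these measures in the rise of CM-LOX2, LOX1.1 and AOS2 was not tested.

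Other lipoxygenase and allene oxide synthase genes, matched by name and not by sequence, did not all follow CM-LOX2, LOX1.1 and AOS2. CM-LOX1, a second plastid lipoxygenase, had signals of 321.9, 441.2 and 325.6 in phr1, 420.6, 465.6 and 499.5 in phr3 and 4409.1, 4234.5 and 4721.3 in phr123, against 641, 393.6 and 555.4 in WT. Its phr123 arrays stood alone, as those of CM-LOX2 did, and the log2 difference from WT was 3.10 (SE 0.172, limma adjusted p = 8.13e-09) beside 4.57 for CM-LOX2. LOX2 and LOX5, the other lipoxygenases bright enough to test, differed from WT in phr123 by 0.28 (adjusted p = 0.0922) and 0.02 (adjusted p = 0.899). The phr123 arrays of LOX2 still lay above all WT arrays, at 1117.9, 1029.1 and 1118.3 in phr123, against 848.7, 896.5 and 941.9 in WT. Against phr1, LOX2 rose in phr123 by 0.56 (adjusted p = 0.00245), and against phr3 by 0.35 (adjusted p = 0.0413), a call lost in 10 of 21 alternatives (adjusted p 0.0513 to 0.153). LOX3 was too dim for the fit, and LOX4 was not matched to a probe set.

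AOS1, the other allene oxide synthase tested, had signals of 421.1, 512.5 and 507.7 in phr1, 428.1, 734.3 and 677.6 in phr3 and 624.2, 959.3 and 831.7 in phr123, against 452.3, 569.8 and 537.2 in WT. It rose by 0.62 in phr123 (SE 0.206, limma adjusted p = 0.0271), against 2.99 for AOS2, and this call was lost when any one of 4 arrays was left out, with adjusted p between 0.052 and 0.118 over those and a variance fit with no trend. In phr3, AOS1 overlapped WT where AOS2 did not. Whether the changes of AOS2 and AOS1, or of CM-LOX2 and CM-LOX1, differed was not tested. AOS3 and AOS4 were too dim for the fit.

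**Figure D2:**
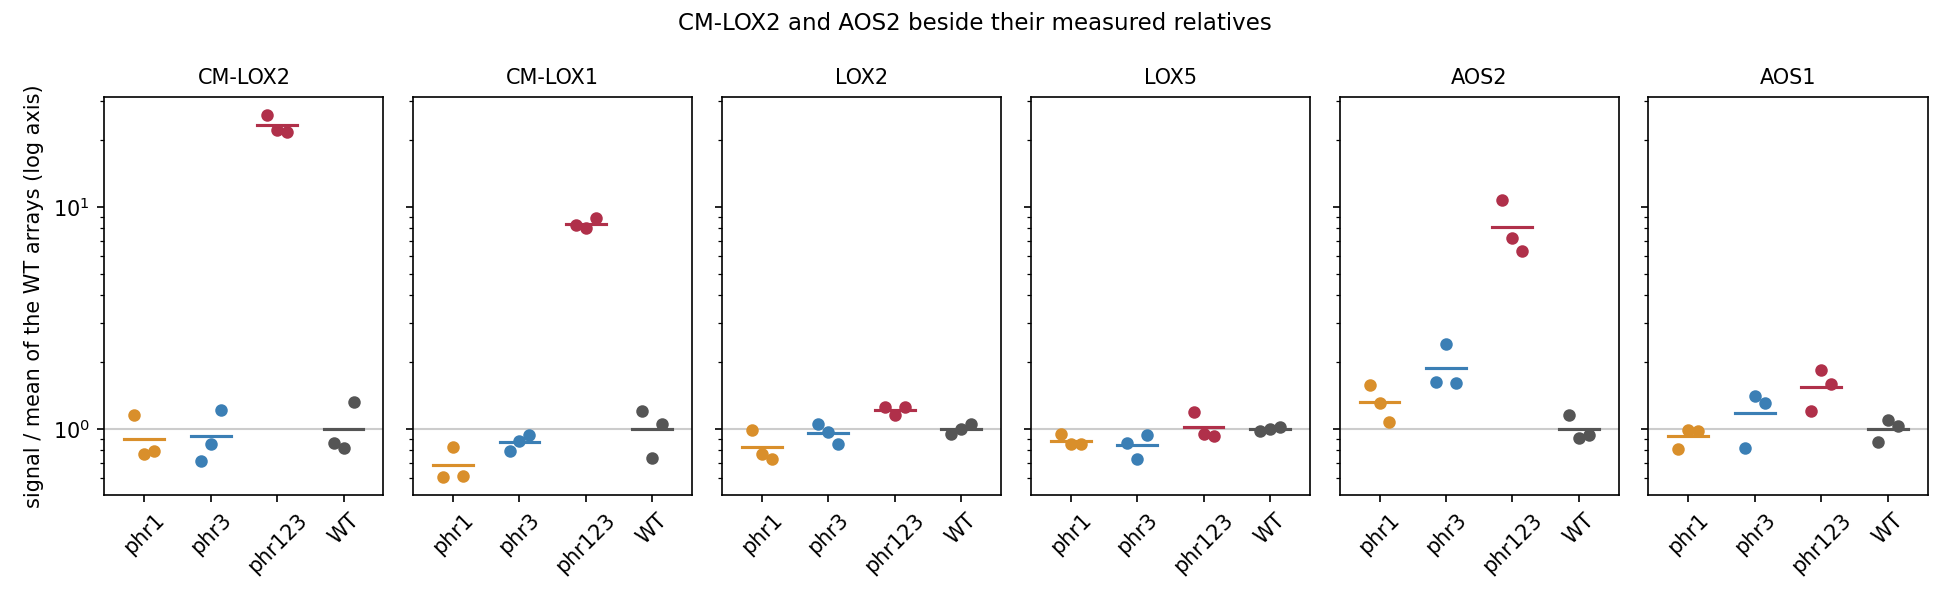
Signal of CM-LOX2, CM-LOX1, LOX2, LOX5, AOS2 and AOS1 on each array, divided by the mean of the WT arrays (log axis), for phr1, phr3, phr123 and WT; points are arrays and lines are means. CM-LOX2, CM-LOX1 and AOS2 stand clear of WT on all 3 phr123 arrays, and LOX2 and AOS1 lie above it by less. LOX5 overlaps WT in phr123 and lies slightly below it in phr1 and phr3, and AOS2 is also raised on the 3 phr3 arrays.

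Around these enzymes, 43 other oxylipin and jasmonate genes were matched by name, of which 39 were on the array and 32 bright enough to test. Between phr123 and WT, 20 rose and 2 fell, against a background of 20.5% of probe sets higher and 21.0% lower, and their median log2 difference was 1.08, against 0.02 for all probe sets tested. Each listed gene was read by its brightest probe set, whereas the background counts every probe set tested. Of the 11 synthesis enzymes tested 8 rose and 0 fell. Those 8 include 3 OPDA reductases taken by symbol, and whether these 3 act in jasmonate synthesis was not tested. An unadjusted p under 0.05 in limma was found for 10 of the 11 enzymes, beside 13850 of all 28597 probe sets. Without phr123 replicate 1, 19 of the 32 rose and 1 fell, and 7 of the 11 enzymes rose. Downstream of AOS2, allene oxide cyclase (AOC) averaged 10820 ± 85.1 in phr123 and 4359 ± 1310 in WT (SD, n = 3 each), a log2 difference of 1.36 (limma adjusted p = 9.71e-05). Among OPDA reductase genes, whose symbols cover enzymes of more than one substrate class, OPR1 rose by 2.26 (adjusted p = 1.47e-07), OPR4 by 1.64 (adjusted p = 8.57e-06) and OPR8 by 0.86 (adjusted p = 0.0345), and OPR7 differed by 0.18 (adjusted p = 0.0585). The OPR8 call was lost in 5 of 20 alternatives (adjusted p 0.0535 to 0.119), among them no filter on dim probe sets and leaving out phr123 replicate 1 or 2 or WT replicate 1 or 3. MFP, a multifunctional protein of beta-oxidation, rose by 1.22 (adjusted p = 2.26e-07) and JAR1 by 0.38 (adjusted p = 0.0107). The differences of CM-LOX2 and AOS2 from WT in phr123, 4.57 and 2.99, lay beside a range of 0.02 to 3.10 over those 11 enzymes.

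**Figure D3:**
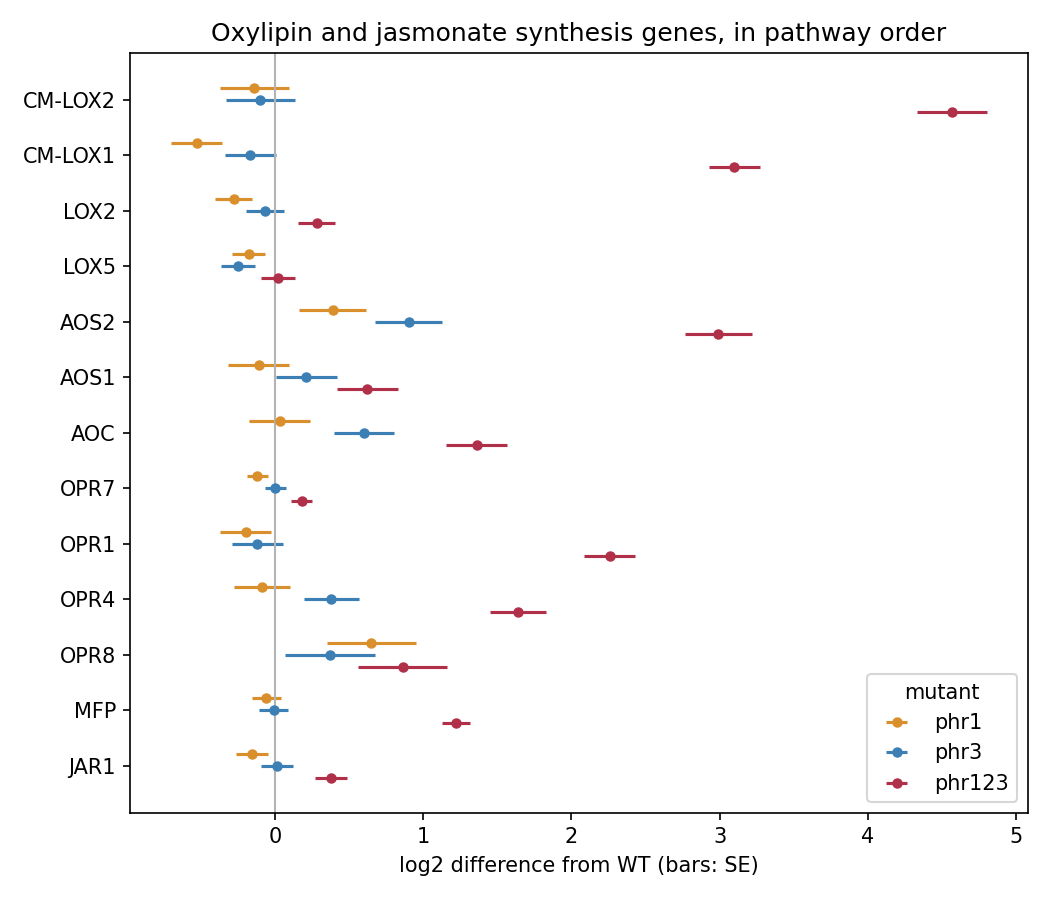
Log2 difference from WT, with its SE as a bar, for CM-LOX2, AOS2 and the 11 other synthesis genes tested, in pathway order from lipoxygenases at the top to JAR1, in phr1, phr3 and phr123. OPDA reductases were placed in this order by symbol alone. The phr123 points of CM-LOX2, CM-LOX1 and AOS2 lie farthest to the right, and among the phr3 points that of AOS2 does.

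In the perception and response part, 1 of the 3 receptor genes tested passed between phr123 and WT. COI1A fell by 0.31 (limma adjusted p = 0.00451), a call that centring the arrays on their medians ended (adjusted p = 0.22). COI1B differed by 0.06 (adjusted p = 0.679) and COI2 by -0.04 (adjusted p = 0.746). TIFY1A fell by 0.31 in phr123 (adjusted p = 0.028). Its call was lost under the same centring, with no filter on dim probe sets, and without phr123 replicate 1, phr123 replicate 2 or WT replicate 3. Of 12 JAZ repressor genes tested 11 rose, also without phr123 replicate 1, beside 20.5% of all probe sets, and the median over the 12 was 2.42, against 0.02 for all tested. TIFY10C rose by 3.17 (adjusted p = 7.9e-09), TIFY11D by 3.98 (adjusted p = 3.7e-08), TIFY10A by 1.68 (adjusted p = 3.09e-08) and TIFY10B by 1.30 (adjusted p = 1.76e-07). JAMYB, a jasmonate-induced MYB gene, had 1838.9, 2031.2 and 2138.1 in phr123, against 461.3, 392.2 and 431.6 in WT, so its groups did not overlap and it rose by 2.23 (adjusted p = 1.5e-07). The other response gene, salT, differed by 0.20 (adjusted p = 0.771), and its phr123 arrays read 26412.3, 5717.1 and 5939.9, with replicate 1 far above the rest.

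In phr3, where AOS2 was 1.88 times WT and CM-LOX2 was at the WT level, 5 of the 32 listed genes rose and 0 fell, against 1.26% of probe sets higher and 0.731% lower (median 0.16, against 0.01 for all tested). All 5 were JAZ genes, TIFY11B by 2.32, TIFY11D by 1.74, TIFY10A by 0.71, TIFY11E by 3.24 and TIFY6B by 0.56, with adjusted p between 6.99e-05 and 0.0109. The TIFY6B call was lost in 4 alternatives (adjusted p 0.0507 to 0.186), among them leaving out phr3 replicate 3 or WT replicate 1, and its dimmer probe set did not pass (0.76, adjusted p = 0.0565). Several of these probe sets can share transcripts of related TIFY genes. Of the 11 enzymes 0 passed in limma, and AOC was nearest with 0.60 (adjusted p = 0.208). An unadjusted p under 0.05 was found for 2 of the 11, beside 3530 of all 28597 probe sets. In phr1, where neither CM-LOX2 nor AOS2 separated from WT, 0 of the 32 passed in limma, with a lowest adjusted p of 0.106. Over the array, 0.448% of probe sets were called higher and 0.486% lower. An unadjusted p under 0.05 was found for 5 of the 32, beside 2980 of all 28597 probe sets. Without phr1 replicate 3, 1 of the 32 passed.

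Between mutants the same listed genes were read without WT. In phr123 against phr1, 22 rose and 0 fell (background 20.8% and 22.0%), and CM-LOX1 led the enzymes with 3.63 (limma adjusted p = 2.1e-09) beside 4.71 for CM-LOX2. In phr123 against phr3, 17 rose and 3 fell (background 19.1% and 21.9%), the enzymes again led by CM-LOX1 with 3.27 (adjusted p = 5.76e-09) beside 4.67 for CM-LOX2. The 3 that fell were COI2, TIFY1A and TIFY11B. COI2 lost its call in 14 of 21 alternatives (adjusted p 0.0538 to 0.823), with the replicate block among them (adjusted p = 0.0715), TIFY11B in 8 (0.0548 to 0.165) and TIFY1A in 2 (0.0625 and 0.425), and the dimmer TIFY11B probe set did not pass (-0.30, adjusted p = 0.374). Without phr123 replicate 1, 21 rose and 0 fell against phr1, and 17 rose and 1 fell against phr3. In phr3 against phr1, 6 rose, all JAZ genes, and 0 fell (background 0.997% and 0.678%; 1 rose without phr1 replicate 2), while AOS2 differed by 0.50 and CM-LOX2 by 0.03. These comparisons share arrays with one another and with those against WT.

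Genes with profiles most like each member over the 12 arrays were found among 2634 probe sets of named genes outside the list, by the root mean square difference of log2 signals centred on their own means. For CM-LOX2 the nearest were the ABC transporter gene ABCG36 (0.34), the chitinase gene Cht2 by its 2 probe sets (0.34 and 0.38), the transcription factor gene OsWRKY62 (0.42) and the esterase gene Pir7b (0.53). ABCG36 averaged 3283 ± 305 in phr123 and 228 ± 34.4 in WT (SD, n = 3 each). All of them were high on the phr123 arrays alone, which the search by likeness to CM-LOX2 selects for.

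For AOS2 the nearest were PAL06, a phenylalanine ammonia-lyase gene (0.35), the metal transporter gene OsZIP1 (0.37), 4CL5, a 4-coumarate:CoA ligase gene (0.38), GH3.2, an auxin-conjugating enzyme gene (0.39), and CML31, a calmodulin-like gene (0.40). PAL06 averaged 14290 ± 816 in phr123 and 2110 ± 68.3 in WT (SD, n = 3 each). The distances from LOX1.1, whose signals outside phr123 were below background, were larger, and the nearest were CYP71Z7 (0.95), OsMAS (0.96) and CPS4 (1.13), all genes of diterpenoid phytoalexin synthesis, then Cht2 (1.16) and the trypsin inhibitor gene OSE727A (1.17). Among the members, CM-LOX2 and AOS2 differed by 1.03, CM-LOX2 and LOX1.1 by 1.14, and LOX1.1 and AOS2 by 1.88. Each of CM-LOX2 and AOS2 was nearer to 5 probe sets outside the list than to the other. Those 5 were picked as the closest of all candidates while the other member was fixed, so the search favours this order. The distance also takes in the size of the phr123 rise, a log2 difference from WT of 4.57 for CM-LOX2 and 2.99 for AOS2. Whether these members differ in the shape of their profiles was not tested.

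**Figure D4:**
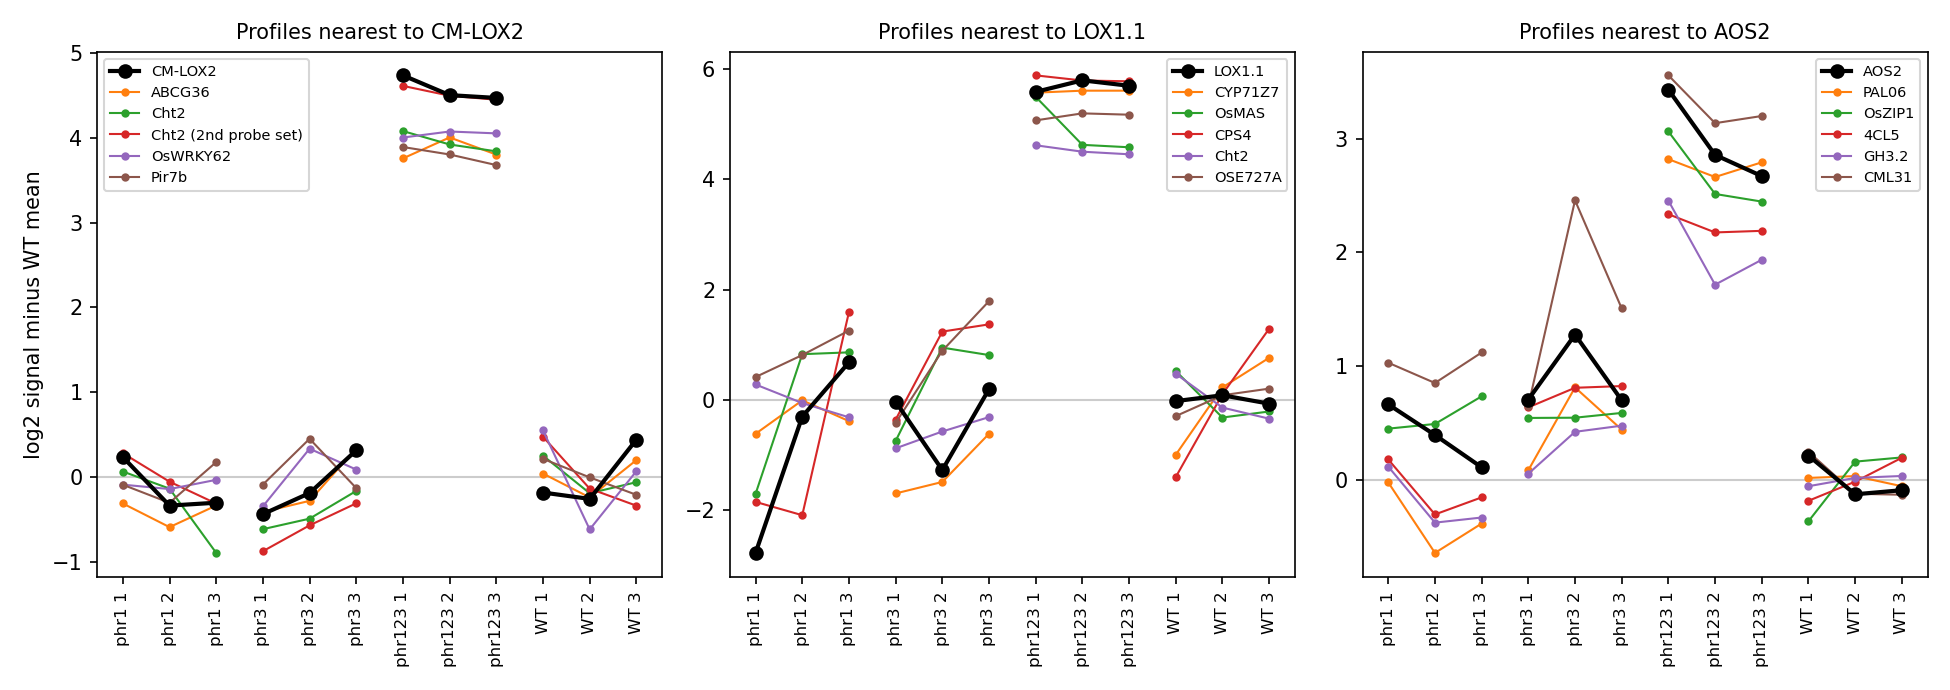
Log2 signal minus the WT mean on each of the 12 arrays for CM-LOX2, LOX1.1 and AOS2 (black) and the 5 probe sets with the most similar profile to each (colours), with lines that only join the 3 arrays of a genotype. Each set was chosen by likeness to its member. The CM-LOX2 set is flat outside phr123, the AOS2 set also lies above WT on the phr3 arrays, and the LOX1.1 set scatters widely outside phr123.

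CM-LOX2 and CM-LOX1 are next to each other in the RefSeq gene order of rice, which was used here for neighbours alone. On the other side of CM-LOX2, the beta-glucosidase gene BGLU27 rose in phr123 by 0.87 (limma adjusted p = 4.92e-07), and the next one, BGLU28, fell by 0.56 (adjusted p = 0.00254), as did LOC4345992 beyond CM-LOX1 by 1.12 (adjusted p = 0.00215). The tested genes nearest to LOX1.1 on the array did not rise in phr123, with log2 differences of -0.15, -0.02 and -0.52, the last of which passed (adjusted p = 0.0056). Next to AOS2, the haemoglobin gene NSHB2 averaged 676.9 ± 77.1 in phr123 and 95.8 ± 29.2 in WT (SD, n = 3 each), a log2 difference of 2.86 (limma adjusted p = 1.9e-06). Of the other 3 tested neighbours of AOS2, LOC4332120 rose by 0.69 (adjusted p = 0.0176), while LOC4332124 differed by 0.48 (adjusted p = 0.519) and LOC4332119 by 0.06 (adjusted p = 0.659). These neighbours were looked up after the members' values had been seen.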

How the data were processed

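RNA of 12 rice shoot samples was labelled with biotin from the 3' end and hybridised to 1-colour Affymetrix arrays. The deposited table gives each probe set a linear intensity, made with MAS5 per the submitters' processing notes (version not given in the sources used here). The trimmed mean was the same on each array. Values of 0 (8 in all) were set to 0.1. Of 57381 probe sets, 123 AFFX and 64 reporter controls were left out, and 28597 of 57194 with a mean signal of 49.4 or more were kept. Log2 signals, with no further scaling, were fitted in R 4.3.3 with limma 3.58.1 (lmFit with 1 mean per genotype, eBayes with trend, 8 residual degrees of freedom). Adjusted p-values are Benjamini-Hochberg over all probe sets tested, with a threshold of 0.05. CM-LOX2, LOX1.1 and AOS2 were in the fit with 1 probe set each and count in its shares, but their p-values are not given. An adjusted p-value weighs a difference of genotype means against the spread within genotypes, and 3 arrays per genotype limit the precision. The fit was tested on simulated data.

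The members and lists were chosen with earlier results of these data known. Genes came from the array annotation (22436 probe sets with 1 gene, 95 with several, 34663 with none), and the brightest probe set stood for a gene. Named genes were the members, every listed enzyme called in any comparison, up to 4 receptor, JAZ and response genes each by smallest adjusted p, and 5 probe sets nearest to each member. LOX5, OPR7 against WT, salT, the phr3 JAZ genes and genes that fell were named after their values were seen. A gene matched through the synonym DAD1 was dropped as another gene. The reporter level leaves out 3 probe sets of 1 reporter sequence with signal in phr123, a choice made after seeing the data. A bound compares the phr123 mean with the mean, on the log2 scale, of the higher of reporter level and signal on each dim array. Same-numbered samples had deviations that correlated between -0.046 and 0.032 over 18 pairs, so the numbers were not taken to pair samples. Promoter and protein sequences of the members were not analysed here.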

Additional observations from a re-analysis of the deposited data

How the results depend on the processing

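CM-LOX2 and AOS2 kept the direction of their phr123 differences under other scalings, a pseudocount of 16 and with each array left out. Using no filter, other variance fits or fewer genotypes cannot change a difference of genotype means, so those settings are no check of it. Neither gene was among the brightest 25% of probe sets, so that filter gave them no value. Leaving out arrays gave 4.44 to 4.79 for CM-LOX2 and 2.76 to 3.14 for AOS2 in phr123 against WT. The small CM-LOX2 differences of phr1 (-0.32 to 0.09) and phr3 (-0.31 to 0.12) from WT had no stable sign. Centring arrays on their medians moved all differences of phr123 from phr1 by 0.29, and that of CM-LOX2 became 5.0. It moved those of phr1 from WT by -0.19, phr123 from phr3 by 0.17 and phr3 from phr1 by 0.11. The LOX1.1 bound ran from 20.3 to 23.5 against phr1, 27.5 to 32 against phr3 and 28.8 to 32.1 against WT as arrays were left out, and was 28.5 against WT with all 64 reporters.

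Of 75 calls on listed genes, 59 were kept in every setting, 16 were lost in at least 1 and 0 reversed. The lost ones include OPR8 in phr123 against WT (adjusted p 0.0535 to 0.119 with no filter or without 1 of 4 arrays), TIFY6B in phr3 against WT (0.0507 to 0.186), and COI2, LOX2 and TIFY11B in phr123 against phr3. Listed genes called between phr123 and WT numbered 19 to 24 with arrays left out (20 without phr123 replicate 1). In phr1 against WT they numbered 0 to 1, the 1 without phr1 replicate 3. In phr3 against phr1 they numbered 1 to 7 with arrays left out (1 without phr1 replicate 2, 3 without phr3 replicate 2 or 3), 1 with no variance trend and 3 with only those genotypes in the fit.

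Probe sets called over the whole array moved most where few were called. In phr1 against WT they were 127 to 384 with arrays left out and 121 with no trend, beside 267. In phr3 against WT they were 334 to 718, 299 with no trend and 298 with median centring, beside 569. In phr3 against phr1 they were 160 to 579, 169 with no trend, 278 with median centring and 292 with only those genotypes, beside 479. The cause was not tested. With the replicate block, the repeat numbers entered as a term. Then 22 listed genes were called in phr123 against WT, 6 in phr3 against WT and 0 in phr1 against WT, and 11600, 502 and 235 probe sets. Each genotype holds every repeat number once, so the block cannot change a difference of genotype means. CM-LOX2 and AOS2 therefore stayed at 4.57 and 2.99 from WT in phr123 by design, which is no check of them. Signals below the reporter level limit what can be said of LOX1.1 outside phr123.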
